A study of Mus musculus with 55 samples.

Results

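The regions described here are distal open-chromatin sites of mouse macrophages that carry a peak of p300 but none of LXR or SREBP. A region entered when its 200 bp window overlapped at least 1 bp of the authors' p300 peak list, overlapped no peak of their LXR or SREBP lists, was annotated as intron or Intergenic, and held no LTR, SINE or LINE in its detailed annotation. Of 97113 open regions, 33126 overlapped a p300 peak, 9645 of these had neither an LXR nor a SREBP peak, 8719 of these were intronic or intergenic, and 6925 were free of the repeat classes. These 6925 p300-only regions, 3810 intronic and 3115 Intergenic, are the members. The choice used the peak lists alone, none of the signal values reported below, and 6176 members overlapped a p300 peak by 100 bp or more.

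Enhancers are stretches of DNA that bind transcription factors and act on genes at a distance. The acetyltransferase p300 is recruited to them as a coactivator and places acetyl groups on histones, among them lysine 27 of histone H3 (H3K27ac), a mark of active enhancers. In macrophages, PU.1 and C/EBP factors establish enhancers, LXR and SREBP regulate cholesterol and fatty acid genes at a part of them, and lipopolysaccharide (LPS), the bacterial ligand of TLR4, brings in NF-kB, AP-1 and IRF factors.

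H3K27ac and p300 were measured by chromatin immunoprecipitation sequencing (ChIP-seq) in bone marrow-derived macrophages of C57BL/6 mice, grown with M-CSF and starved of serum overnight. Cells received 3'-sialyllactose (3'SL, a milk oligosaccharide) at 100 µg/ml together with LPS at 10 ng/ml, LPS alone, 3'SL alone, or PBS, each for 2 h or 6 h. The peak lists of p300, LXR and SREBP that define the regions came from other cells given the LXR agonist GW3965 at 1 µM, and the open regions came from ATAC-seq of another study, in untreated macrophages and after 1 h of KLA, a TLR4 agonist, at 10 ng/ml, so they include sites seen after a TLR4 agonist. Each treated group had 2 libraries. In the tables used here PBS had 2 for H3K27ac at 2 h, while its 6 h H3K27ac group and both of its p300 groups were a lone replicate 2 library. Nothing in the labels says that replicates were separate animals or cultures, so p-values measure the spread between these libraries, which may be technical. These are bulk cells, so fewer cells carrying a mark and less of it per cell cannot be told apart.

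Libraries held 4200716 to 39597624 H3K27ac tags and 3199270 to 18130439 p300 tags. The windows took 53.9% to 79.3% of tags in the 15 H3K27ac libraries compared, against 8.65% and 8.8% in their inputs. For p300 they took 20.1% to 27.5% in replicate 2 and 6.12% to 9.42% in replicate 1, against 4.77% in the input. For H3K27ac, the replicate 1 libraries titled 2 h of any treatment but PBS carry a treatment label of 1 h. The replicate 2 H3K27ac libraries of 3'SL with LPS have the source name of an input, and the treatment label of the 2 h one reads vehicle. Of their tags 76.8% and 73.2% lay in the windows, and at the Tnfaip3 member described below they held 141 and 35.1, against 2.04 to 8.27 in PBS. Titles were followed in all these cases. All 7 macrophage markers had a promoter region, with a mean H3K27ac of 84.8 to 694, whereas none of the 4 T cell, 4 B cell or 4 fibroblast markers had one. A promoter region was found for 1 of 4 neutrophil markers (mean 24.4), 1 of 3 dendritic cell markers (4.96) and 1 of 3 erythroid markers (5.92). A value throughout is the number of tags in the 1000 bp (H3K27ac) or 200 bp (p300) window per 10000000 tags of the library, rescaled between libraries, and changes are differences of log2(value + 1).

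Sequences are shown for the members on which the results turn, taken from GRCm38 (mm10), plus strand, 5′ to 3′, in the 200 bp p300 window. Capitals mark matches, on either strand, to the letters NF-kB GGGNNTTCC, PU.1/ETS core GGAAGT, AP-1 TGANTCA, C/EBP TTGCNNAA or IRF GAAANNGAA, of which the PU.1/ETS and IRF letters can overlap. The first 3 are members acetylated under LPS, nearest to Stx8 (chr11:68092013-68092213, intronic), Tnfaip3 (chr10:19046142-19046342, Intergenic) and Socs3 (chr11:117976194-117976394, Intergenic). The Tnfaip3 and Socs3 windows were added after their values were seen, because these genes encode feedback inhibitors of inflammatory signalling.
Stx8: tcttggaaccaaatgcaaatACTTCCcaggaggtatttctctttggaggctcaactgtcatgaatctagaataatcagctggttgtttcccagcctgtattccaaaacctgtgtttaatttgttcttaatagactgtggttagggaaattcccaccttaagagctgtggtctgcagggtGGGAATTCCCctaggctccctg
Tnfaip3: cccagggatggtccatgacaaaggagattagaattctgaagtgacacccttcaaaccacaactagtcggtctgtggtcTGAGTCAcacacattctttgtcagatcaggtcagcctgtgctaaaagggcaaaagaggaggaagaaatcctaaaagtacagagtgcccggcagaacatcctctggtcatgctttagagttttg
Socs3: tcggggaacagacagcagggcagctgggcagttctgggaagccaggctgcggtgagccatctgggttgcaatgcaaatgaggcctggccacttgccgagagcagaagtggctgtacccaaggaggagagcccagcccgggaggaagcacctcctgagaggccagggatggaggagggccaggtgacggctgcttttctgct

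The next members gained the most p300 under LPS at 2 h, nearest to Itgb8 (chr12:119147790-119147990, Intergenic) and Clcn7 (chr17:25140428-25140628, intronic).
Itgb8: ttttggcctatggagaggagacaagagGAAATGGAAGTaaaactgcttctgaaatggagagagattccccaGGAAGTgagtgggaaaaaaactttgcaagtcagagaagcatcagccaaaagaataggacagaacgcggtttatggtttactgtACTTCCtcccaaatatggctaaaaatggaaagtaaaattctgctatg
Clcn7: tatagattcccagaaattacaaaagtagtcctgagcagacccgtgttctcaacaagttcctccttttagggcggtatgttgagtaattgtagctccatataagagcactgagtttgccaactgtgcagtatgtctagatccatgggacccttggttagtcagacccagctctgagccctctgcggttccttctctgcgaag

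The next lost H3K27ac (nearest to 6030471H07Rik, chr4:84308341-84308541, intronic) or p300 (nearest to Lrrc17, chr5:21565722-21565922, intronic).
6030471H07Rik: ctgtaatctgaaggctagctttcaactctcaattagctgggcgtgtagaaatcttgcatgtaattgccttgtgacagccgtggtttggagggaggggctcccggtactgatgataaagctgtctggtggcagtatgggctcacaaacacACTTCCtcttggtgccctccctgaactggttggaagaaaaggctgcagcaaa
Lrrc17: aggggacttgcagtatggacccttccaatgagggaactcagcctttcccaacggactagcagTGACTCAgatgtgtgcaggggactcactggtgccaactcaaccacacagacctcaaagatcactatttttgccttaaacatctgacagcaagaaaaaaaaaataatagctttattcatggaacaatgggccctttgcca

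The last had the highest mean p300 of all members, nearest to Pgs1 (chr11:117990003-117990203, intronic) and Rapgef5 (chr12:117481189-117481389, Intergenic).
Pgs1: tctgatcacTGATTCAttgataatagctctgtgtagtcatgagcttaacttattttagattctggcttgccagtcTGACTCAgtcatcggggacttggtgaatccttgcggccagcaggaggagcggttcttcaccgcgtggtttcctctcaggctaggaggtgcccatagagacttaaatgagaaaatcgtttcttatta
Rapgef5: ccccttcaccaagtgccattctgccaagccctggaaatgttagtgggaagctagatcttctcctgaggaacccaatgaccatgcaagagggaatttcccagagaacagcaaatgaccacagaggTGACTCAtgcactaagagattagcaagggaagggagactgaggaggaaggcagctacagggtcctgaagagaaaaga

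Single windows carry different motifs. The NF-kB letters lie near the 3′ end of the Stx8 window, in a stretch that reads as the motif on both strands, and the Itgb8 window holds 3 PU.1/ETS cores, one of them overlapping its IRF match. A stretch with 3 letters between GGG and TTCC does not match the NF-kB letters and is not marked. The Stx8 and Rapgef5 windows hold such a stretch. AP-1 letters occur in the Tnfaip3, Lrrc17, Rapgef5 and, 2 times, Pgs1 windows. The Socs3 and Clcn7 windows hold none of the 5 motifs.

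The median distance of the p300-only regions to the nearest annotated start was 29359 bp. The other distal classes had medians of 17868 bp (LXR peak, no SREBP peak), 24385 bp (SREBP peak, no LXR peak), 22489 bp (both) and 22887 bp (no peak), without a test. Of the members 23.5% lay within 10 kb of a start and 34.6% beyond 50 kb. They had 4317 nearest genes, of which Zfp608 (15 members), Pik3r1 (14), Foxp1 (12), Trps1 (12) and Klf4 (11) had the most. The 200 bp windows of 224 members overlapped another member's, as did the 1000 bp H3K27ac windows of 441. Counts of members therefore include regions that share tags. Median GC content was 46.8%, against 46.3% to 50.2% in the other distal classes. Their median rank by the authors' ATAC score was at percentile 47.5 of all open regions, against 65.7 in distal regions with an LXR peak and no SREBP peak and 72.1 in distal regions with both. In these comparisons the distal regions with an LXR peak and no SREBP peak numbered 5515, those with a SREBP peak and no LXR peak 6272, those with both 8554, and those with no peak of any of the 3 factors 34534.

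Letters of macrophage factors were common in the members. The PU.1/ETS core was present in 44.3% of member windows, against 35.4% of all open windows, 49.8% of distal windows with both LXR and SREBP peaks and 29% of those with no peak. AP-1 letters were in 24.9% of members against 17.2% of all windows, C/EBP letters in 14.7% against 10.3%, IRF letters in 10.8% against 7.83%, and the RUNX letters TGTGGTT in 9.96% against 6.97%. In the same order, the shares were 24.7%, 16.1%, 10.1% and 12.6% in distal windows with both LXR and SREBP peaks. They were 22.3%, 13.8%, 10.4% and 8.8% with a SREBP peak alone, and 17%, 9.15%, 7.38% and 5.17% with no peak. Shares above those of all windows were therefore not particular to the members. The SREBP letters TCACNCCAC were found in 0.404% of members, against 3.16% of regions with a SREBP peak alone and 0.922% of all. The nuclear receptor half-site AGGTCA was in 10.4% of members, against 23% of regions with an LXR peak alone and 12.1% of all. The exact letters of the paired LXR DR4 element were in 0 members. They were also rare elsewhere, in 0.109% of regions with an LXR peak alone and 0.0144% of all, so this 0 says little about the members. A match describes the letters of the window and says nothing about binding.

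Both marks were of middling height in the members. The median of a member's mean H3K27ac over the 15 libraries was 17.3, with the central 80% of members between 3.38 and 126, against 58.4 in LXR regions, 24.4 in SREBP regions, 90.2 in regions with both, 4.5 in regions with no peak and 17.9 over all. For p300 over 14 libraries the median was 8.48, against 16.9, 10.8, 34.2, 2.95 and 6.28 in the same classes. As deposited, the median member held 13.7 to 16.2 H3K27ac tags per 10000000 in the 15 ChIP libraries, against 6.15 and 7.7 in the inputs. The corresponding p300 medians were 9.14 to 14.4 in replicate 2 and 3.69 to 4.68 in replicate 1, against 2.43 in the input. Enough tags for testing were present in 6421 members (92.7%) for H3K27ac and 5622 (81.2%) for p300, and the counts below cover these.

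The member with the highest mean p300 lies 3246 bp into Pgs1, which encodes an enzyme of cardiolipin synthesis. Its p300 value at 2 h was 662 and 217 in LPS libraries, against 52.2 in the PBS library, a difference of 2.84 ± 0.68 (log2, SE; adjusted p = 0.0359). H3K27ac there was 813 and 694 under LPS, against 271 and 116 in PBS, a rise of 2.08 ± 0.41 (adjusted p = 0.0157). The LPS and PBS libraries did not overlap for either mark. Rapgef5, an exchange factor for Rap GTPases, has the next member by p300, which lies 35190 bp upstream and passed no test. Its p300 at 2 h was 172 and 351 under 3'SL with LPS, 173 and 202 under LPS and 135 and 153 under 3'SL, against 162 in PBS. Another highly occupied member, in Tm9sf4, which encodes a transmembrane protein of the endosomal system, held p300 of 372 and 319.6 under LPS at 2 h, against 12.6 in PBS (4.67 ± 0.55, adjusted p = 0.000459), and H3K27ac of 703 and 795, against 90.1 and 35.8 (3.69 ± 0.39, adjusted p = 0.00171).

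The share of p300 tags that lay in members was larger in every library with LPS than in any without it. Of all p300 tags in open-region windows, members held 6.40% and 6.85% under 3'SL with LPS for 2 h, 6.63% and 6.65% for 6 h, 6.65% and 6.90% under LPS for 2 h, and 6.28% and 7.28% for 6 h. In libraries without LPS the share was 5.63% and 5.42% under 3'SL for 2 h, 5.52% and 4.96% for 6 h, 5.31% in PBS at 2 h and 5.08% at 6 h. The 8 libraries with LPS therefore lay above the 6 without it, and the input, at 4.98%, lay within the range of those 6. This share does not depend on the scaling between libraries. Distal regions with no peak held 11.5% to 15.4% of p300 tags with LPS and 9.75% to 12.9% without, and regions with both LXR and SREBP peaks 22.9% to 30.4% with LPS and 26.9% to 33.5% without, both ranges overlapping. Regions with a SREBP peak alone held 6.86% to 8.30% with LPS and 6.44% to 6.95% without, which also overlap. Within a replicate number the regions with no peak separated too, with 13.9% to 15.4% with LPS against 11.8% and 12.9% without in replicate 1, and 11.5% to 13.8% against 9.75% to 10.9% in replicate 2. The SREBP regions did so in replicate 2 (7.29% to 8.30% against 6.44% to 6.91%) and overlapped in replicate 1, so a larger share with LPS was not particular to the members. For H3K27ac the members' share was 4.61% to 5.49% with LPS and 4.54% to 5.04% without, which overlap.

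**Figure D1:**
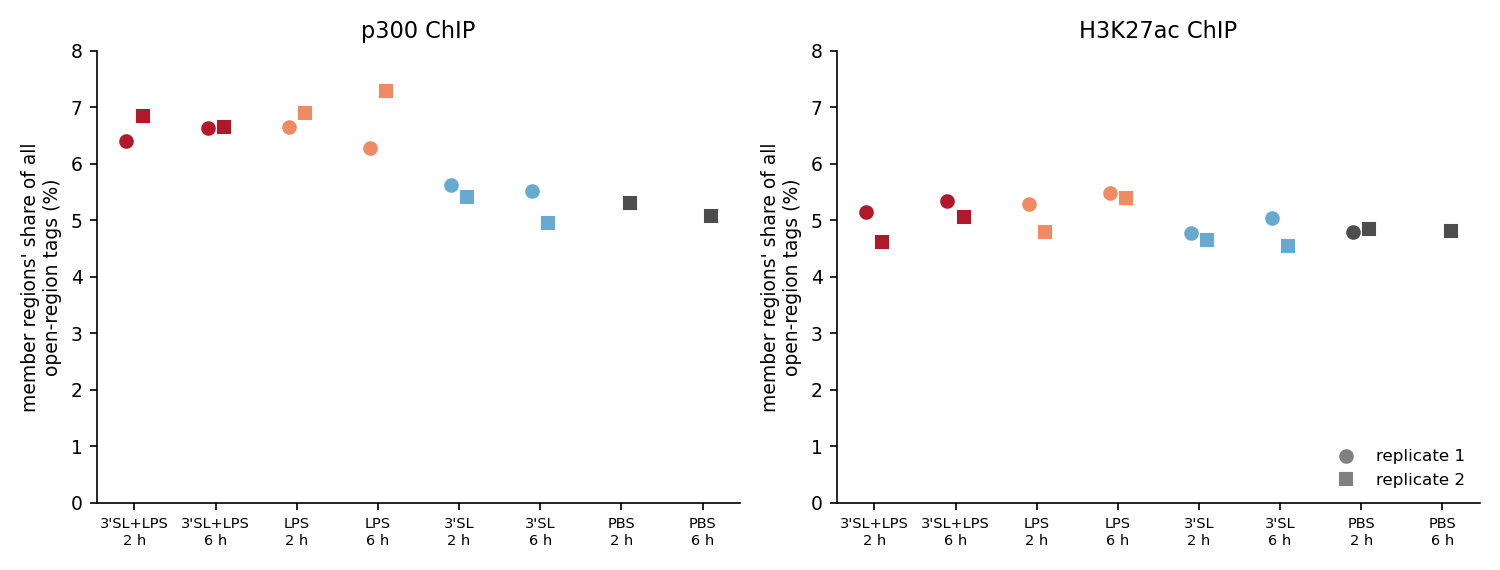
Share (%) of all open-region tags that lay in the p300-only regions, by library, for p300 (left) and H3K27ac (right); circles are replicate 1 and squares replicate 2. The p300 share is 6.28% to 7.28% in libraries with LPS and 4.96% to 5.63% in those without, and the H3K27ac shares overlap.

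LPS changed H3K27ac at a small part of the members at 2 h, in both directions. Against PBS, 259 members rose (4.03% of those tested) and 111 fell (1.73%), where 3.08% of all 77387 regions rose and 2.07% fell (limma, adjusted p under 0.05). The median member changed by -0.06, the median of all regions by 0.01. Each of the 259 was higher and each of the 111 lower within replicate 1 and within replicate 2, with medians of 2.64 and 2.49 for those that rose and -1.87 and -2.01 for those that fell. The calls were made on these same libraries, so this agreement and these medians follow from the selection and are not replication. Libraries deviated together by replicate number, and with the replicate as a block 845 members rose and 721 fell, against 11.8% and 11.2% of all regions. Without 1 library the count of 370 became 78 (LPS replicate 1, the library labelled 1 h), 94 (LPS replicate 2), 154 (PBS replicate 1) or 58 (PBS replicate 2), and DESeq2 on recovered tags called 701.

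The largest rise was in the member 125655 bp into Stx8, which encodes an endosomal SNARE protein. Its H3K27ac was 56.6 and 195 under LPS, against 3.68 and 0 in PBS (5.62 ± 0.90, adjusted p = 0.0071). Its p300 stood at 92.0 and 218 under LPS, against 5.4 in PBS, and 3'SL alone left both marks low, with H3K27ac of 2.51 and 2.31. Every LPS library lay above every PBS library, which for H3K27ac at 2 h the rule for naming members required. In an intron of Alpk2, an atypical protein kinase gene, H3K27ac was 220.2 and 188 under LPS, against 8.27 and 2.04 in PBS (5.27 ± 0.94, adjusted p = 0.0107). At Cab39l, whose product is related to a scaffold of the LKB1 kinase, LPS libraries held 40.4 and 31.9 and both PBS libraries held 0 tags, which makes the rise at least 25.0-fold over a floor of 3 tags in the group (adjusted p = 0.00454).

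Tnfaip3 encodes A20, a ubiquitin-editing enzyme that restrains NF-kB. H3K27ac in its member 30832 bp upstream was 160.3 and 174 under LPS at 2 h, against 8.27 and 2.04 in PBS (4.98 ± 0.58, adjusted p = 0.00236), and 80.3 and 49.6 at 6 h, against 2.66 or 3 tags in PBS (ratio 26.1, interval 8.77 to 128, adjusted p = 0.0317). With 3'SL added to LPS it was 168 and 141 at 2 h and 54.2 and 35.1 at 6 h, so the libraries with and without 3'SL overlapped at 2 h and at 6 h. Members near A530032D15Rik (63.3 and 17.4 under LPS, against 0.919 and 0 in PBS, which is 1 tag, with a ratio of 85.1, interval 15.0 to 3389, adjusted p = 0.0175) and near Eci2, a fatty acid isomerase gene (343 and 149.9, against 11 and 6.13, adjusted p = 0.021), complete the 6 largest rises. The Eci2 call was lost without any 1 of the 4 libraries, the Alpk2 and A530032D15Rik calls without 3 of them and the Stx8 call without 2, while those of Cab39l and Tnfaip3 held throughout.

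The largest fall was in a member whose nearest gene is 6030471H07Rik, 263562 bp away, with H3K27ac of 9.43 and 7.24 under LPS, against 67.1 and 122 in PBS (-3.30, adjusted p = 0.00403). It stayed low under LPS at 6 h, at 10.7 and 14.3, against 105 in PBS (-2.99, adjusted p = 0.039). Near Rcbtb2, 8.76 and 1.45 stood against 43.2 and 49.1 (-3.27, adjusted p = 0.0129), and near Ywhah, which encodes a 14-3-3 adaptor, 10.1 and 7.24 stood against 78.1 and 91.0 (-3.16, adjusted p = 0.0108). Near Klf4, a zinc-finger transcription factor gene of monocytes, the values were 2.02 and 0 against 18.4 and 12.3 (-3.21, adjusted p = 0.0291). In none of the 4 did the LPS and PBS libraries overlap, which the rule for naming members required. Of the 4 calls, the first held without any single library, those near Rcbtb2 and Ywhah were lost without 3 of the 4 libraries, and the Klf4 call was lost without any 1 of the 4.

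**Figure D2:**
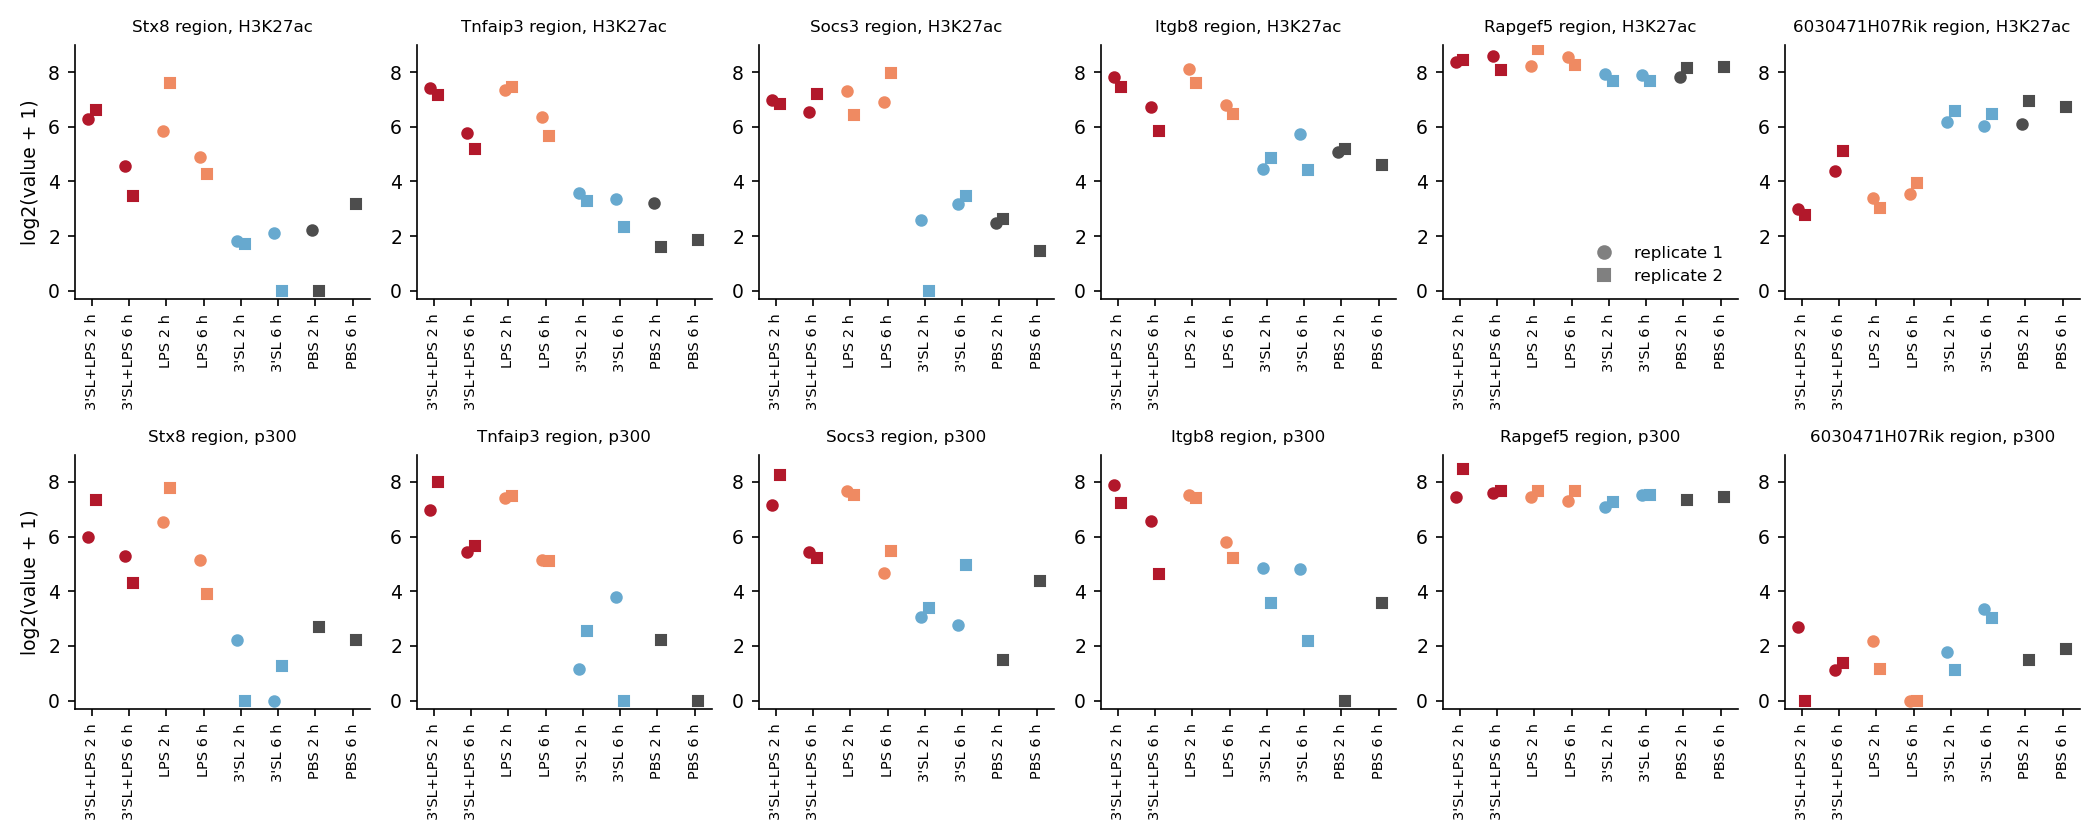
H3K27ac (top) and p300 (bottom) as log2(value + 1) at 6 members in every library, with circles for replicate 1, squares for replicate 2 and colours for treatment. The Stx8, Tnfaip3, Socs3 and Itgb8 members are higher in all libraries with LPS than without for H3K27ac, those of the Rapgef5 member overlap, and 6030471H07Rik is lower with LPS.

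At 6 h fewer members passed the test, with a lone PBS library of replicate 2 as the baseline for LPS libraries of replicates 1 and 2. H3K27ac rose under LPS at 52 members and fell at 7 (0.810% and 0.109% of members, against 0.545% and 0.132% of all regions), and with the replicate block at 473 and 249 (5.07% and 4.11% of all regions). Of the 52, 48 had also risen at 2 h (92.3% of the 6 h calls and 18.5% of the 2 h calls), and 256 of the 259 members that rose at 2 h lay above PBS at 6 h, with a median of 1.94 against 2.64 at 2 h. Without LPS replicate 1 the count of 59 became 3, without LPS replicate 2 it was 0, and edgeR called 19.

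In an intron of Rasgrp1, an activator of Ras, H3K27ac was 612 and 376 under LPS at 6 h, against 6.2 in PBS (6.06 ± 1.05, adjusted p = 0.0329). The member 6928 bp upstream of Socs3, a feedback inhibitor of cytokine receptor signalling, had 119 and 248 under LPS, against 1.77 in PBS, which rests on 2 tags (adjusted p = 0.0191). The ratio of pooled tags was 92.9 with a 95% interval of 25.5 to 770.1, which like the other intervals covers counting error only. Near Saa1, which encodes an acute phase apolipoprotein, 93.0 and 190.5 stood against 1.77 (2 tags, ratio 71.9, interval 19.7 to 597, adjusted p = 0.0191). Alpk2 again, Sh3bp4 and Ankrd44 complete the 6, with adjusted p of 0.0304, 0.0111 and 0.0106. Among the falls, an intron of Hpgd, the enzyme that degrades prostaglandins, had 4.26 and 5.22 under LPS, against 70.9 in PBS (-3.65, adjusted p = 0.0363). A member 8958 bp upstream of Foxp1, a forkhead repressor gene, had 34.8 and 39.1 against 223 (-2.56, adjusted p = 0.0419), and one near Taar8b 20.6 and 31.3 against 179 (-2.77, adjusted p = 0.0326). All of these 6 h calls were lost without either LPS library.

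For p300 the changes under LPS ran almost only upward. At 2 h 200 members rose (3.56%) and 2 fell (0.0356%), where 2.05% of all 62225 regions rose and 0.146% fell, and the median member changed by 0.29 against 0.11 over all. At 6 h 40 rose (0.711%) and 0 fell, against 0.387% and 0.0225%, with medians of 0.33 and -0.05. These comparisons set LPS libraries of replicates 1 and 2 against PBS of replicate 2 alone, so a difference between replicate numbers can enter them. Within replicate 2 the median member changed by 0.23 at 2 h and 0.39 at 6 h, against 0.14 and 0.00 over all regions. With the replicate block 482 rose and 40 fell at 2 h (5.62% and 1.49% of all regions) and 219 rose and 9 fell at 6 h (2.02% and 0.476%). The lone PBS library at 2 h was the shallowest p300 library, with 3199270 tags: 108 of the 200 members that rose (54%) held 0 tags there, as did 12.9% of the members tested. On simulated counts for the 2 h comparison this limma test called more unchanged regions than changed ones, so its p300 calls are to be read with the counts of the other tools. edgeR called 10 members at 2 h and 0 at 6 h, DESeq2 115 and 91, and without either LPS library the calls were 51 and 80 at 2 h and 2 each at 6 h. On the authors' own scaling, which set the median of all regions at -0.68 and -0.96 and so turned that of members to -0.49 and -0.54, no member passed and 481 and 235 had an unadjusted p under 0.05.

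The 6 largest rises of p300 at 2 h were at members with no tag in the PBS library, so each is given as a bound over a floor of 3 tags. Itgb8 encodes a chain of the integrin that activates TGF-beta, and its member 90386 bp downstream of the start held p300 of 185 and 168 under LPS, against 0 in PBS, a rise of at least 32.8-fold (adjusted p = 0.000832). H3K27ac there was 275 and 192 under LPS, against 33.1 and 35.8 in PBS (2.70, adjusted p = 0.0104). In Clcn7, the gene of a lysosomal chloride transporter, p300 was 268 and 99.0 against 0, at least 34.4-fold higher (adjusted p = 0.00496). Bounds for the members of Ttc39c, Rab31 (a vesicle-transport GTPase), Lmo4 (a transcriptional cofactor) and Sh3bp4 were 26, 22.2, 23.2 and 23.4-fold, with adjusted p of 0.00122, 0.000745, 0.0102 and 0.00204. The Clcn7 and Lmo4 calls were each lost without 1 of the 2 LPS libraries. In PBS at 6 h the Itgb8, Clcn7 and Rab31 members held 10.9, 7.27 and 8.17, so those zeros were not shared by the other PBS library.

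Lrrc17, a leucine-rich repeat gene, had 1 of the 2 falls of p300 at 2 h, with 14.2 and 15.0 under LPS, against 139 in PBS (-3.16 ± 0.77, adjusted p = 0.04). The other fall, chosen for mention after its values were seen, was near 4930412B13Rik (-4.15, adjusted p = 0.0455). At the Lrrc17 member p300 in PBS at 6 h was 39.1, and H3K27ac at 2 h was 11.4 and 66.6 under LPS, against 42.3 and 219 in PBS, which overlap. At 6 h the Lmo4 member had 306 and 146 under LPS, against 0 in PBS, which is at least 74.7-fold (adjusted p = 0.0143). The member 53104 bp upstream of Tnfaip3 had 74.1 and 63.0, against 0 (at least 24.6-fold, adjusted p = 0.00224), and that of Plscr1, a scramblase gene induced by interferon, 57 and 40.6 against 0 (at least 17.1-fold, adjusted p = 0.0441). Alpk2, Ttc39c and Tmc3 were the others, with adjusted p of 0.00612, 0.0111 and 0.0155. The Lrrc17 call at 2 h and the Lmo4, Plscr1, Ttc39c and Tmc3 calls at 6 h were lost without either LPS library. The Alpk2 call was lost without 1 of the 2.

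Both marks moved the same way at most members that changed. Across the 5427 members tested for both, the changes at 2 h had a Spearman correlation of 0.55, against 0.51 across all 59602 such regions, given as a description of regions measured in separate libraries of the same treatments. Of 254 members with a rise in H3K27ac, 243 had p300 above PBS, with a median of 2.99, and of 104 with a fall, 87 had p300 below, with a median of -1.09. Over all regions tested for both it was 2165 of 2254 and 1317 of 1514, so this was no more frequent in members. A rise in both marks was found at 89 members, which is 35% of those with a rise in H3K27ac and 44.5% of those with a rise in p300. Over all regions the shares were 25.2% and 44.4%.

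**Figure D3:**
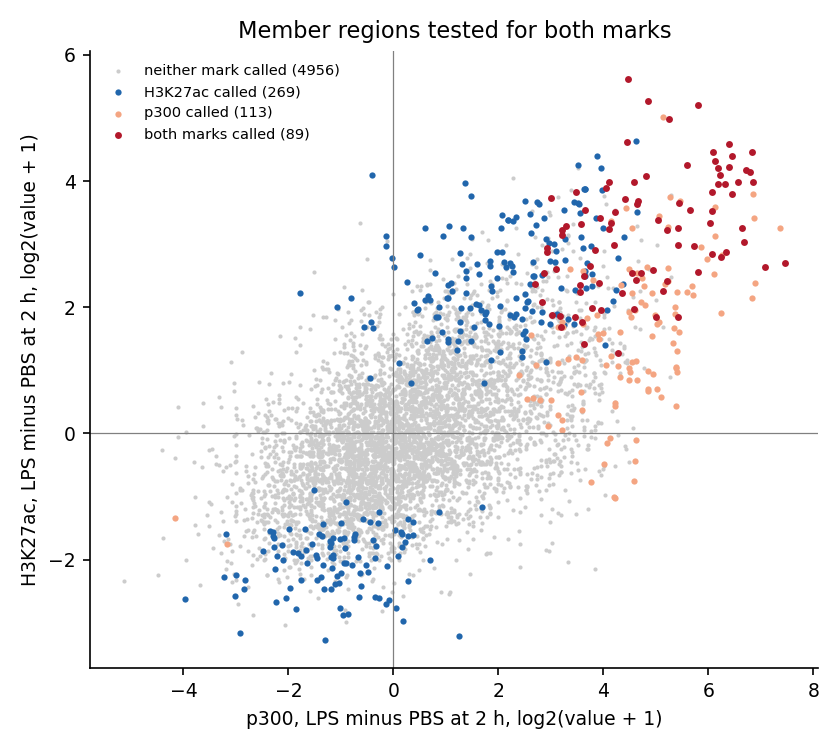
LPS minus PBS at 2 h for p300 (x axis) and H3K27ac (y axis), both in log2(value + 1), for the 5427 members tested for both marks, coloured by which mark passed the test. The 89 members called for both lie in the upper right, and members with lower H3K27ac lie mostly at negative p300 differences.

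Set beside other distal regions at 2 h of LPS, the members lay between the LXR- or SREBP-bound ones and those with no peak in their median change and in their share of falls of H3K27ac, and above all of them in their shares of rises. For H3K27ac at 2 h the medians were -0.06 in members, -0.23 in LXR regions, -0.12 in SREBP regions, -0.34 in regions with both and 0.12 in regions with no peak. For p300 they were 0.29, -0.03, 0.08, -0.23 and 0.56, relative to 0.11 over all regions. Falls of H3K27ac at 2 h were found at 1.73% of members, against 3.41%, 2.39%, 5.83% and 1.06% in the same order, and rises at 4.03%, against 2.94%, 3.30%, 3.66% and 3.02%. For p300 rises stood at 3.56% of members, against 1.90%, 2.35%, 1.66% and 2.76%. These are descriptions, and no difference between classes was tested. Within the members, H3K27ac rose at 4.94% of those within 10 kb of a start, 4.14% of those at 10 to 50 kb and 3.26% of those beyond 50 kb. It fell at 2.01%, 1.74% and 1.52% of the same sets, so calls in both directions were fewer farther from a start.

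**Figure D4:**
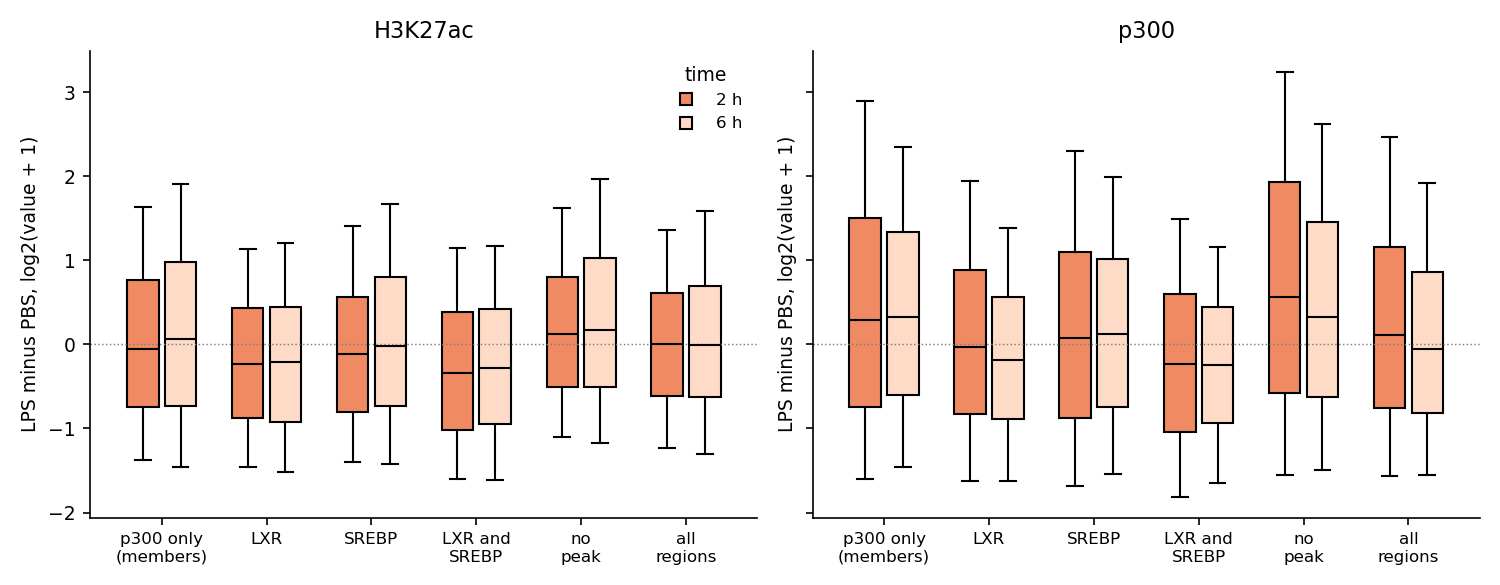
Change under LPS against PBS, log2(value + 1), at 2 h and 6 h in the p300-only members, in the other distal classes and in all regions tested; boxes span the quartiles with the median line, and whiskers the 10th to 90th percentile over regions. The median of members for p300 is 0.29 at 2 h and 0.33 at 6 h, above that of the LXR and SREBP classes.

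NF-kB letters stood in a larger share of the members that rose under LPS. The motif GGGNNTTCC was in 49 of the 259 windows with a rise in H3K27ac at 2 h (18.9%) and in 39 of the 200 with a rise in p300 (19.5%), against 4.41% and 4.70% of the members tested for each mark and 4.61% of all open windows. Among the 111 with a fall in H3K27ac it was in 5 (4.50%). IRF letters were in 16.6% of windows with a rise in H3K27ac, 9.50% of those with a rise in p300 and 6.31% of those with a fall in H3K27ac, against 10.8% of all members. AP-1 letters were in 21.2%, 30.5% and 27.9% of the same 3 sets, and the PU.1/ETS core in 40.9%, 31.5% and 41.4%. These shares are descriptions of letters, without a test, and stretches with 3 letters between GGG and TTCC are not counted for NF-kB.

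**Figure D5:**
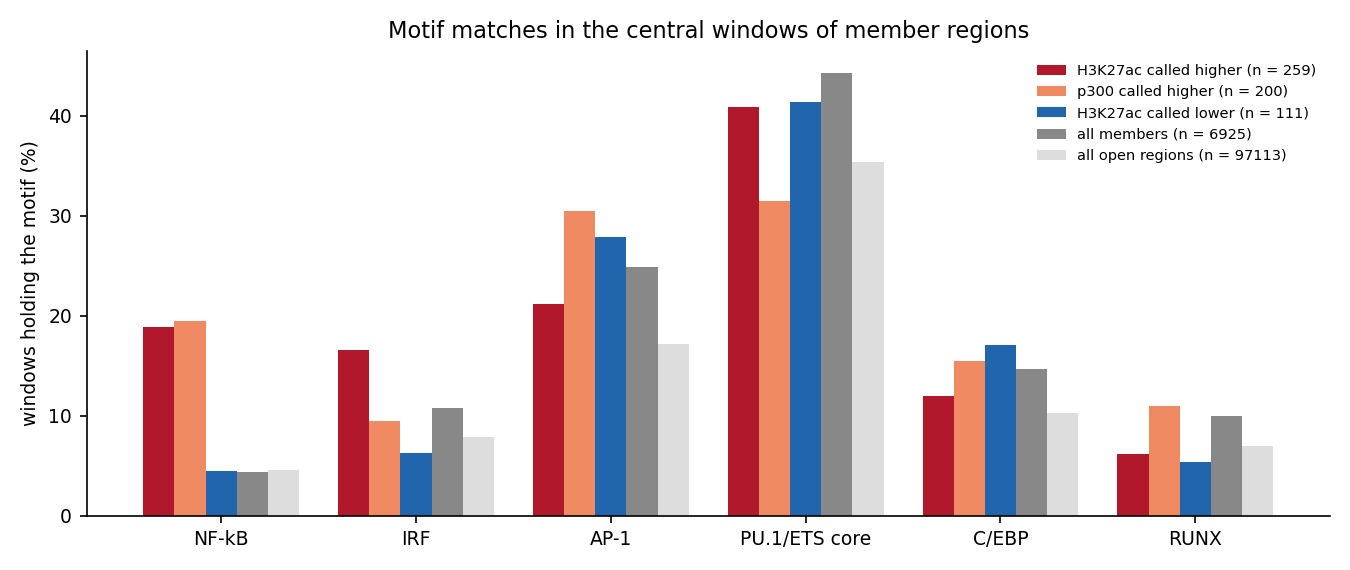
Share (%) of 200 bp windows that hold each motif on either strand, for members called at 2 h of LPS, all members and all open regions. NF-kB letters are in 18.9% and 19.5% of members with a rise in H3K27ac or p300, against 4.38% of all members.

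Genes of the NF-kB programme carried p300-only regions that rose. Of 37 listed genes 14 were the nearest gene of 26 members, and of the 25 tested for H3K27ac 7 rose at 2 h and 0 fell, with a list median of 1.76 against -0.06 over all members and 24 of 25 above PBS. The replicate block gave 14 that rose and 0 that fell. For p300 6 of 22 rose at 2 h and 1 at 6 h, with medians of 2.52 and 1.33, against 0.29 and 0.33 over all members. Of all regions 3.08% rose and 2.07% fell in H3K27ac at 2 h, or 11.8% and 11.2% with the replicate block. In p300 2.05% of all regions rose and 0.146% fell at 2 h, and 0.387% and 0.0225% at 6 h. These shares stand beside the lists below as well. The lists were chosen with earlier results of these data known, so their direction is not independent evidence.

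Rel encodes the NF-kB subunit c-Rel. Its intronic member had H3K27ac of 224 and 219 under LPS at 2 h, against 16.5 and 12.3 in PBS (3.87 ± 0.36, adjusted p = 0.00129), and p300 of 189.9 and 152, against 12.6 (3.65, adjusted p = 0.154). At Nfkbie, which encodes the inhibitor IkB-epsilon, H3K27ac was 400.1 and 316 against 39.5 and 61.3 (2.83 ± 0.39, adjusted p = 0.00411), while p300 was 27.1 and 25.1 against 18.0. The inducible nitric oxide synthase gene Nos2 had 137 and 78.9 against 17.5 and 23.5 at 33529 bp upstream (2.30 ± 0.44, adjusted p = 0.0147). Nfkbiz encodes the nuclear IkB-zeta, a coactivator of secondary response genes. Its member 130919 bp downstream of the start had H3K27ac of 66.7 and 67.3, against 4.59 and 7.16 (3.33 ± 0.83, adjusted p = 0.0427), and p300 of 54.3 and 119, against 3.6, which is 2 tags (ratio 23.8, interval 6.47 to 198, adjusted p = 0.0128).

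At Socs3 the values of the 2 marks took different courses from 2 h to 6 h. H3K27ac in the member 6928 bp upstream was 158 and 84.7 under LPS at 2 h, against 4.59 and 5.11 in PBS (4.32 ± 0.73, adjusted p = 0.00878), and stayed high at 6 h. There p300 was 205 and 183 under LPS at 2 h, against 1.8 or 1 tag in PBS (ratio 108, interval 19.3 to 4281, adjusted p = 0.000893), but 24.7 and 43.8 at 6 h, against 20.0 in PBS (0.69, adjusted p = 0.847). A second Socs3 member, 27727 bp downstream of the start, had H3K27ac of 124 and 112 at 2 h against 22.1 and 14.3, and 107 and 111 at 6 h against 12.4 (adjusted p = 0.00327 and 0.0138). Its p300 was 67.2 and 55.1 at 2 h against 3.6 (ratio 17.1, interval 4.6 to 143, adjusted p = 0.00918), and 20.9 and 18.1 at 6 h against 19.1 (adjusted p = 0.996). With the replicate block, the p300 response of the upstream member was lower at 6 h than at 2 h by a tested difference of -5.43 (adjusted p = 0.00668). Without the block no lower response passed. The difference also rests on PBS values of 1.8 (1 tag) at 2 h and 20.0 at 6 h, from 1 library each. With the block a lower p300 response at 6 h passed at 2 members and at 0.0241% of all regions. Also with the block, the effect of 3'SL on p300 at 2 h was lower with LPS than without it at 2 members and at 0.0161% of all regions.

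Other lists held fewer such members. Interferon response genes had 6 members near 5 genes, all 6 above PBS in both marks at 2 h and 6 h. Of these the one near Rsad2, the antiviral gene of viperin, rose in H3K27ac (187 and 56.5 under LPS at 2 h, against 11 and 12.3, adjusted p = 0.0379) and in p300 (129.7 and 80.2, against 0 in PBS, a bound of at least 19.6-fold, adjusted p = 0.00346). Another near Gbp5, a guanylate-binding GTPase gene, rose in p300 (44.8 and 26.3, against 3.6, ratio 9.96, interval 2.64 to 84.2, adjusted p = 0.0413). Among TLR4 signalling genes, 3 of 18 tested members rose in H3K27ac at 2 h and 0 fell, and with the replicate block 7 rose and 1 fell. They lie in Irak2, a kinase of the TLR adaptor complex (221 and 206, against 43.2 and 37.8, 2.37 ± 0.35, adjusted p = 0.00497), and 2 in Tab2, which links TRAF6 to TAK1, the larger with 263 and 185, against 13.8 and 20.4 (3.64 ± 0.43, adjusted p = 0.00261).

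Macrophage identity genes had 32 members near 13 genes, of which 6 rose in H3K27ac at 2 h and 0 fell, with a list median of 0.12. These counts became 9 and 7 with the replicate block. The member 10172 bp upstream of Spi1, the gene of PU.1, had 782 and 961 under LPS, against 433 and 356 in PBS (1.14 ± 0.25, adjusted p = 0.0248). Of the others, 3 lie 26817 to 27737 bp upstream of the scavenger receptor gene Marco, and the strongest had 70.7 and 113, against 14.7 and 14.3 (2.54 ± 0.44, adjusted p = 0.00992). The H3K27ac windows of these 3 overlap and share tags, so they are not separate sites. The rest are near the transcription factor genes Irf4 (adjusted p = 0.039) and Maf (adjusted p = 0.0311). For p300 3 of 29 rose, near Marco and Csf2rb, which encodes a receptor chain shared by GM-CSF and IL-3.

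None of 19 cholesterol and fatty acid synthesis genes was the nearest gene of a member, by a rule that leaves out regions with SREBP or LXR peaks. The list of LXR targets and cholesterol efflux had 5 members near 5 of 15 genes, and 0 passed the test in either mark, while with the replicate block 1 rose and 2 fell in H3K27ac at 2 h. An intronic member of Abca1, the cholesterol exporter, had H3K27ac of 86.9 and 65.9 under LPS at 2 h, against 156 and 126 in PBS (-0.88 ± 0.33, adjusted p = 0.168, and 0.0337 with the replicate block). Of 7 lysosomal members 1 fell, in Tfeb, a transcription factor gene of lysosome biogenesis, with H3K27ac of 38.4 and 34 at 2 h, against 187 and 155 (-2.21 ± 0.53, adjusted p = 0.0364), and 151 and 95.2 at 6 h, against 130.2. At 2 h 5 of the 7 fell with the replicate block. No member of the 15 near AP-1 and ATF genes or of the 4 near housekeeping genes passed the test in either mark. Among the AP-1 and ATF members the replicate block gave 3 that rose and 3 that fell in H3K27ac at 2 h, and 1 that rose in p300.

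No member passed the test between 6 h and 2 h of LPS, in either mark, and 0% of all regions did. At an unadjusted p under 0.05 there were 196 members higher and 132 lower at 6 h for H3K27ac, of 6421 tested, and 159 and 156 for p300, of 5622. Over all regions the counts were 2431 and 1940 of 77387 for H3K27ac, and 1337 and 1817 of 62225 for p300. With the replicate block 73 members were higher and 15 lower for H3K27ac (1.43% and 0.354% of all regions), and 2 and 9 for p300 (0.0498% and 0.104%). In an intron of Lat2, an adaptor gene of leukocyte signalling, H3K27ac was 631 and 624 at 6 h of LPS, against 242 and 216 at 2 h (1.45 ± 0.26, adjusted p = 0.265, and 0.00168 with the block), and 556, 479 and 466 in the 3 PBS libraries. A Bub1b member, in a spindle checkpoint gene, had 104 and 104 against 31.7 and 24.6 (adjusted p = 0.00368 with the block), and a member in Bcor, a corepressor gene, 4.97 and 1.3 against 40.4 and 26.8 (adjusted p = 0.00385 with the block). For p300, a member near Med13l, a Mediator subunit gene, had 1.9 and 8.54 at 6 h, against 90.8 and 66.4 at 2 h (adjusted p = 0.00996 with the block). DESeq2 called 17 members for H3K27ac and 0 for p300, and edgeR 0 for both.

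With 3'SL no member passed the test, whether alone against PBS or with LPS against LPS. In each of these 8 comparisons limma, edgeR and DESeq2 called 0 members, and limma called 0% of all regions. On counts simulated for LPS against PBS at 2 h, limma recovered 1% of 4-fold changes in each mark. It recovered 72% of 16-fold changes in H3K27ac and 10% in p300, so 0 calls do not show that 3'SL had no effect. At an unadjusted p under 0.05, 3'SL alone had 23 members higher and 26 lower in H3K27ac at 2 h and 70 and 39 at 6 h, and 384 and 61 in p300 at 2 h and 150 and 33 at 6 h. For p300 at 2 h, against the lone shallow PBS library, 3055 of all 62225 regions were higher and 526 lower at that p, against 384 and 61 of the 5622 members. With LPS the numbers were 11 and 7, 32 and 10, 38 and 44, and 83 and 85. Across the 77387 regions tested for H3K27ac, the counts with LPS were 115 and 129 (2 h) and 347 and 131 (6 h). Those for 3'SL alone were 220 and 227 (2 h) and 785 and 329 (6 h), beside 6421 members tested. Across the 62225 tested for p300, they were 340 and 333 (2 h) and 953 and 882 (6 h) with LPS. After 6 h of 3'SL alone they were 1032 and 274. When 3'SL was added to LPS, the median changes of members were -0.04 and -0.01 in H3K27ac and -0.01 and -0.04 in p300 at 2 h and 6 h. On the authors' scaling they were 0.04 and -0.09, and 0.03 and 0.25, where the median of all regions for p300 at 6 h was 0.32.

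Medians differed between the gene lists when 3'SL was added to LPS, though no listed member passed the test. NF-kB members had H3K27ac medians of -0.20 at 2 h and -0.52 at 6 h, with 5 of 25 above LPS at each time, and p300 medians of -0.24 and 0.15, with 8 and 14 of 22 above. Interferon members had H3K27ac medians of -0.42 and -0.39, with 2 and 0 of 6 above LPS, and p300 medians of -0.18 and -0.40, with 2 and 0 of 6 above. Lysosomal members had p300 medians of -0.57 and 0.29, with 0 and 4 of 7 above, and H3K27ac medians of 0.07 and 0.03. For LXR and cholesterol efflux members the p300 medians were 0.16 and 0.60, with 4 of 5 above at each time, and the H3K27ac medians 0.26 and 0.14. Shifts of p300 were therefore not particular to LPS-responsive genes, and no difference between lists was tested. The same LPS libraries serve this comparison and that of LPS with PBS, so the values are given side by side only. A p above the threshold with 2 libraries a group does not show that the groups are alike.

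The replicate block called members for 3'SL in 1 of the 8 comparisons, p300 at 2 h against the lone PBS library, with 35 higher and 2 lower (0.312% and 0.00482% of all regions). Of the 35, 26 (74.3%) held 0 tags in that library, against 12.9% of members tested. The smallest p belonged to a member near Hilpda, a lipid droplet protein gene, with p300 of 39.8 and 20.4 under 3'SL, against 0 in PBS (adjusted p = 0.0656, and 0.0004 with the block), while PBS at 6 h held 12.7. Its H3K27ac was 115 and 21.3 against 92.8 and 4.09, which overlap. The next were near Acsl1, which encodes an acyl-CoA synthetase (15.7 and 15.6, against 0, adjusted p = 0.154, and 0.00663 with the block), and Spdye4c (24.1 and 13.2, against 0, adjusted p = 0.154, and 0.00611 with the block). For 3'SL added to LPS for 2 h, the smallest p was found near Eepd1 in H3K27ac, with 2.52 and 2.52 against 0 and 0, and in Ppp3r1, a calcineurin subunit gene, in p300, with 10.9 and 12.4 against 0 and 0, both with an adjusted p of 1.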

How the data were processed

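Both ChIP-seq tables give signal that the authors deposited as tags per window, scaled to 10000000 tags per library per the file headers. The submitters' processing notes name Bowtie2, HOMER, DESeq2 and mm10. Per the labels' protocols, H3K27ac cells were fixed with formaldehyde and p300 cells with DSG and formaldehyde. All values gave whole tags within 0.05 and were recovered as counts. The score of open regions is a column of the authors' deposited ATAC peak table, which nothing here defines, and served only as a rank. Values were rescaled by TMM (edgeR 4.0.16), taken as log2(value + 1), and tested with limma 3.58.1 (R 4.3.3) over all groups of a mark, with Benjamini-Hochberg adjustment over all regions that passed the filter on low values. Sequences were read with pysam 0.24.0 from the RefSeq genome GRCm38. The alternatives were edgeR's quasi-likelihood test and DESeq2 1.42.0 on recovered tags, the authors' scaling, log2(value + 5), no filter, an overlap of 100 bp, a replicate block, and leaving out each library. Tests were checked on simulated data, where the limma test of p300 with 1 PBS library called more unchanged than changed regions, so edgeR and DESeq2 counts stand beside its p300 counts. Deviations of libraries with the same replicate number correlated in every pair of groups (r 0.445 to 0.67 over 21 pairs for H3K27ac, 0.196 to 0.383 over 15 for p300). Libraries of a replicate number therefore shared a deviation, while the labels state no pairing of samples.

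Named members were, per mark and time, the 6 largest rises and 4 largest falls that passed the test with non-overlapping libraries and at least 20 tags, 1 per nearest gene. Where none passed they were the 3 with the smallest p, and the 6 highest in p300 and the called members of gene lists were added. Members and lists were chosen with earlier results of these data known. 6 per-sample columns that matched no label were not used. The p65 peak list was not used, because 329 of its 41220 peaks lay past a GRCm38 chromosome end.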

Additional observations from a re-analysis of the deposited data

Results flagged for a closer look

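With the replicate block, the difference between 2 effects passed the test at 4 members, all for p300 and all involving the lone PBS library at 2 h, which held 0 tags in 3 of them and 1 tag at Socs3. Of all 62225 regions tested for p300, 0.0241% were lower for the LPS effect at 6 h minus 2 h and 0.0161% for the 3'SL effect, against 2 members each (0.0356% of those tested). Without the block no such difference passed (0% of all regions). At the member 6928 bp upstream of Socs3 the LPS effect at 6 h minus that at 2 h was -5.43 (adjusted p = 0.00668), from 24.7 and 43.8 under LPS at 6 h, against 20.0 in PBS, and 205 and 183 under LPS at 2 h, against 1.8 in PBS. At the Itgb8 member it was -5.53 (adjusted p = 0.00668), from 55.1 and 36.3 under LPS at 6 h, against 10.9 in PBS, and 185 and 168 under LPS at 2 h, against 0 in PBS.

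The 3'SL effect at 2 h differed with and without LPS at a member 16701 bp upstream of Wfikkn2, by -5.83 (adjusted p = 0.0333). Its p300 was 17.4 and 2.06 under 3'SL with LPS, against 17.7 and 17.5 under LPS, and 38.6 and 19.2 under 3'SL, against 0 in PBS. At the Hilpda member the difference was -5.02 (adjusted p = 0.0278), from 19.6 and 19.6 under 3'SL with LPS, against 28.3 and 16.3 under LPS, and 39.8 and 20.4 under 3'SL, against 0 in PBS.

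One H3K27ac library of vehicle cells has no time in its labels and entered no comparison. Its median over members was 11.8 tags per 10000000, against 6.15 and 7.7 in the inputs.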

How the results depend on the processing

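Of the counts of called members, those for LPS moved most. With the replicate block they became 1566 (H3K27ac, 2 h), 722 (H3K27ac, 6 h), 522 (p300, 2 h) and 228 (p300, 6 h), against 370, 59, 202 and 40 without it, and all the unblocked calls were among them. The block also called 88 and 11 members between 6 h and 2 h of LPS for H3K27ac and p300, and 37 for p300 under 3'SL at 2 h, where 0 were called without it. It changed no other call from 0. DESeq2 gave 701, 308, 115 and 91, and 17 for H3K27ac between 6 h and 2 h of LPS. edgeR gave 19 for H3K27ac at 6 h and 10 and 0 for p300 at 2 h and 6 h. For p300, the authors' scaling gave 0 and 0, and log2(value + 5) gave 133 and 25. Leaving out 1 library gave 58 to 154 and 0 to 3 for H3K27ac, and 51 to 80 and 2 to 2 for p300, with a lone library assumed to vary like the other groups. The cause was not tested. Of the 33 named calls, edgeR kept 11, the authors' scaling 16, DESeq2 32 and the block 33, and none was reversed. Depth is a limit for p300, where 12.9% of tested members held 0 tags in PBS at 2 h.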
